A study of Mus musculus with 12 samples.

Results

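The kallikrein (Klk), Prss and Spink genes, which encode trypsin-like serine proteases and a class of their inhibitors, were followed through the stages of a NOTCH1 leukemia reprogramming series in mouse. Members were all genes whose platform symbol starts with Klk, Prss or Spink and then a number, read from probe sets that carry 1 gene symbol. The rule gave 74 of the 22180 genes measured, namely 24 Klk, 38 Prss and 12 Spink genes. It matched 79 probe sets, of which 4 also carried the symbol of another gene and were left out. Prss23 had 2 probe sets, and the one with the higher mean over all 12 arrays was used. No difference between groups entered the rule, but the families were proposed with results of these arrays in view, so the counts describe them and do not show that they are special.

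Total RNA was measured on 12 Affymetrix arrays, 3 in each of 4 groups, and values are log2 probe-set levels as the authors deposited them. All groups carry the genotype R26rtTA;Col1a12lox-4F2A, a tetracycline transactivator at Rosa26 with an inducible cassette of reprogramming factors at Col1a1. The leukemia arrays hold leukemia cells from spleen, and their titles all name the same leukemia. The GFP-positive colonies (labelled as partially reprogrammed), the GFP-negative colonies (labelled as reprogrammed) and the established iPS cells (grown in mES medium) were all derived from leukemia cells. Ages, culture times, inducer treatment and what GFP marks are not given in the labels used here. The titles speak of biological replicates without naming animals or cultures, and the p-values then cover no more than the spread among these arrays.

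Serine proteases of these families are made as inactive proenzymes and cut other proteins at sites set by their substrate pocket, after arginine or lysine for the trypsin-like members. In stratified epithelium Klk5, Klk7 and Klk14 digest the junctions of shedding cells and are held in check by LEKTI, the product of Spink5. In the pancreas the trypsinogens Prss1, Prss2 and Prss3 are food-digesting enzymes and the Spink1 product blocks trypsin that is activated too early, while Klk1, the tissue kallikrein, releases kinins and has many rodent copies, the Klk1b genes.

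The leukemia and iPS arrays were tightly grouped and the colonies were not. Any 2 leukemia arrays correlated at 0.994 across genes and any 2 iPS arrays at 0.995, while pairs of GFP-positive arrays reached 0.937 to 0.975 and pairs of GFP-negative arrays 0.887 to 0.97. A list of 18 measured stratified epithelium genes (keratins, cornified envelope and desmosome genes) averaged 5.41 to 5.55 on leukemia arrays and 5.98 to 6.07 on iPS arrays, against 8.50, 8.12 and 8.87 on GFP-positive replicates 1, 2 and 3 and 8.44, 6.38 and 5.66 on GFP-negative replicates 1, 2 and 3. The 12 pluripotency genes averaged 6.58 on that first GFP-negative array and 9.40 and 9.63 on the other two. So GFP-negative replicate 1 lay with the GFP-positive arrays on the epithelial list and apart from its own group. GFP-positive replicate 3 had the lowest pluripotency average of its group, 7.09 against 8.25 and 9.47 on replicates 1 and 2. In such bulk samples fewer cells of a type and less RNA per cell cannot be told apart.

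Against leukemia, 11 members rose and 5 fell in GFP-positive colonies, 3 rose and 3 fell in GFP-negative colonies, and 5 rose and 4 fell in iPS cells (limma over all 12 arrays, Benjamini-Hochberg adjusted p under 0.05 over 22180 genes). The members called were 21.6%, 8.11% and 12.2% of the families, and over all genes 21.9%, 21% and 24.3% were called in the same 3 comparisons, 9.6%, 9.02% and 12.4% as higher and 12.3%, 12% and 11.9% as lower. Over all 74 members the families were not called more often than other genes. However, 51 members had a mean below the median gene. In a fit of only the genes above the median, 56.5% of 23 members were called for GFP-positive colonies, against 38.5% of those genes. For the GFP-negative group the shares were 26.1% and 36.1%, and for iPS cells 26.1% and 38.8%. Members in that fit were thus called more often in the first comparison and less often in the others. The median difference over all 74 members was 0.13, 0.10 and -0.07, against -0.04, -0.01 and -0.03 over all genes. The Klk genes stood highest in GFP-positive colonies, where 8 of 24 rose, 1 fell and the median difference was 1.39. These 3 comparisons share the leukemia arrays, so their values are given side by side only. Single arrays moved these counts. In GFP-positive colonies 10 members were called without GFP-positive replicate 1 (13.5%, against 17% of all genes). Among GFP-negative colonies 11 were called once replicate 3 was left out (14.9%, against 21.1%) and 8 once replicate 1 was (10.8%, against 27.2%). In iPS cells 5 were called without leukemia replicate 2 or iPS replicate 1 (6.76%, against 17.7% and 17.9%).

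**Figure D1:**
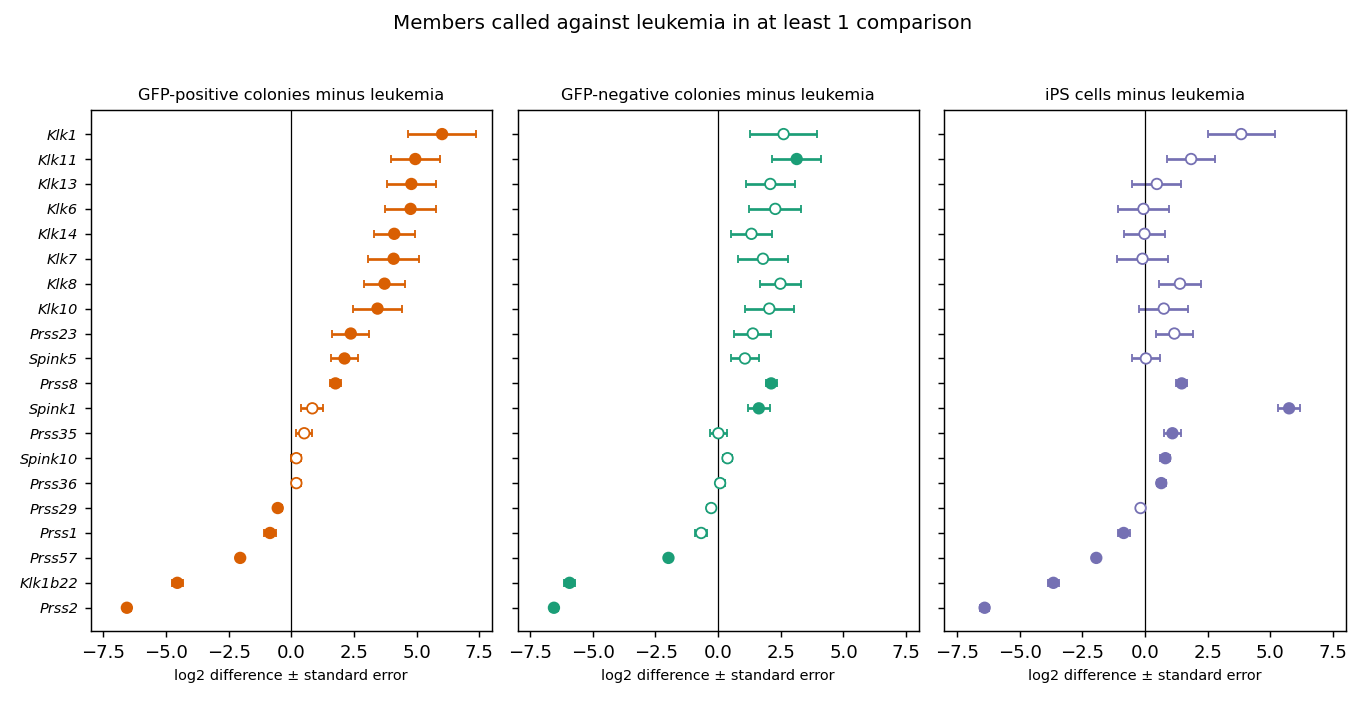
Log2 differences from leukemia (horizontal axis, bars are standard errors of the fit, 3 arrays per group) for the 20 members called in at least 1 of 3 comparisons, with filled points for calls at an adjusted p under 0.05. Prss2, Klk1b22 and Prss57 lie to the left in all 3 panels, the epithelial kallikreins lie to the right mainly in the first, and Spink1 is farthest right in the iPS panel.

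The member with the largest fall was Prss2, a trypsinogen. It measured 10.58, 10.78 and 10.45 on the leukemia arrays, 3.99, 3.92 and 4.22 on the GFP-positive arrays, 4.20, 3.77 and 4.19 on the GFP-negative arrays and 4.23, 4.44 and 3.94 on the iPS arrays. All 9 colony and iPS arrays thus lay far below all leukemia arrays, and the 3 later groups overlapped each other. The difference from leukemia was -6.56 ± 0.17 in GFP-positive colonies (adjusted p = 5.28e-09), -6.55 ± 0.17 in GFP-negative colonies (adjusted p = 5.36e-09) and -6.40 ± 0.17 in iPS cells (adjusted p = 4.89e-09). Signal over background was not measured on these arrays, so differences from low levels are given on the log2 scale of the probe set signal and not as folds of RNA.

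Prss2 lies inside the T cell receptor beta locus. In the RefSeq gene order, after the segment Trbv30, come the trypsinogen genes Try4, Try5, Try10, Prss3, Gm5771, Gm10334, Prss1 and Prss2, followed directly by the diversity segment Trbd1, the first joining segments and the constant gene Trbc1. The 1 gene of the receptor beta list that was measured, the variable segment Trbv13-2, differed by -3.65 ± 0.21 in GFP-positive colonies (adjusted p = 7.43e-07), -3.61 in the GFP-negative group and -3.67 in iPS cells. All 11 measured T cell genes fell in each of the 3 groups, with list averages of at least 9.95 on leukemia arrays and at most 6.43 elsewhere.

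The other trypsinogens of that locus fell by less or were not called. Prss1 measured 5.43, 6.40 and 5.46 in leukemia, 5.06, 4.62 and 5.04 in GFP-positive colonies, 5.33, 4.97 and 4.95 in the GFP-negative group and 4.86, 5.02 and 4.86 in iPS cells. Leukemia replicate 2 was the highest of the 12 and the other leukemia arrays lay just above the rest. The difference was -0.85 ± 0.24 in GFP-positive colonies (adjusted p = 0.0295) and -0.85 ± 0.24 in iPS cells (adjusted p = 0.0267); without leukemia replicate 2 it was -0.53 in both and the calls were lost. The first was lost as well without GFP-positive replicate 1 or 2 and the second without any iPS array, with adjusted p up to 0.0916 and 0.0826.

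Prss3 ranged from 4.51 to 5.60, differed from leukemia by -0.34, -0.29 and -0.27 in the 3 groups and was not called. A probe set with the symbols of both Gm10334 and Prss3, left out of the comparisons, read 6.56 to 6.63 in leukemia. It read 6.13 to 6.41 on all other arrays, without overlap. Try4, a trypsinogen gene outside the symbol rule, fell by 1.25 ± 0.21 in GFP-positive colonies (adjusted p = 0.00176). Of the 15 measured pancreatic acinar genes, a list that holds Try4, 3 fell in GFP-positive colonies, 2 in the GFP-negative group and 2 in iPS cells. Their average was 5.18 to 5.31 on leukemia arrays and 4.88 to 5.14 elsewhere. That average was already low in leukemia, where Prss2 read 10.45 to 10.78, so the sizes of the falls cannot be compared. The part of T cells or of pancreas-like expression in the fall of Prss2 was not tested. Probe sets of near-identical trypsinogens can read each other's transcripts, and their values are uncertain to that extent.

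The promoters of Prss2 and Prss1 are shown because these neighbouring genes differed in leukemia, at 10.45 to 10.78 and 5.43 to 6.40. Prss1 was low there already, so the sizes of their falls cannot be compared. Each is 250 bases before to 50 bases after a RefSeq transcript start on build GRCm38.p6, plus strand, at chr6:41521526-41521825 for Prss2 and chr6:41458680-41458979 for Prss1. Capitals mark the motif TATAAA, searched on both strands, which 13.6% of 32851 RefSeq promoters of this length hold.
Prss2: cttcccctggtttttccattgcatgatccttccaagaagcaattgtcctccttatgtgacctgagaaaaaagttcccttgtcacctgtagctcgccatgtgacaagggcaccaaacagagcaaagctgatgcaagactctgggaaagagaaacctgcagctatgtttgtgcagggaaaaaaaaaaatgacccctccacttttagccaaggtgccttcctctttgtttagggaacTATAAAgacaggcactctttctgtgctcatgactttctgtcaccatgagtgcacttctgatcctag
Prss1: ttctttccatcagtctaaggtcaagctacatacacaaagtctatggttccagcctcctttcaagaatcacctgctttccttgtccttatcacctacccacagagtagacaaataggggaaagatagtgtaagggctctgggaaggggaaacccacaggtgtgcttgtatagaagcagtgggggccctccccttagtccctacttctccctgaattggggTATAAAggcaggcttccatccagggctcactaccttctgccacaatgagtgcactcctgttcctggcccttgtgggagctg
Both hold 1 match, and in a global alignment the 2 windows are 55.2% identical, against 60.9% for Prss1 with Prss3. A match is a description of the letters and not a measured site.

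Klk1b22, a Klk1 copy whose product was named as a binding protein of epidermal growth factor, was the only kallikrein that fell against leukemia in the 4-group fit. It measured 10.49, 10.86 and 10.75 in leukemia, 5.95, 6.52 and 6.0 in GFP-positive colonies, 4.51, 5.21 and 4.59 in the GFP-negative group and 7.30, 6.72 and 7.12 in iPS cells. No 2 groups overlapped: leukemia was highest, then iPS cells, GFP-positive and GFP-negative colonies. The difference from leukemia was -4.55 ± 0.23 in GFP-positive colonies (adjusted p = 3.26e-07), -5.93 ± 0.23 in GFP-negative colonies (adjusted p = 5.93e-08) and -3.66 ± 0.23 in iPS cells (adjusted p = 1.49e-06).

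Among the later groups Klk1b22 was higher in iPS cells than in GFP-negative colonies by 2.27 ± 0.23 (adjusted p = 0.000995) and than in GFP-positive colonies by 0.89 ± 0.23 (adjusted p = 0.0363). The second of these calls was lost without any one of 5 arrays, with adjusted p up to 0.135. The other Klk1b genes did not follow it. Klk1b9 and Klk1b8 stayed within 3.68 to 4.47 and 2.63 to 3.38 over all 12 arrays.

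**Figure D2:**
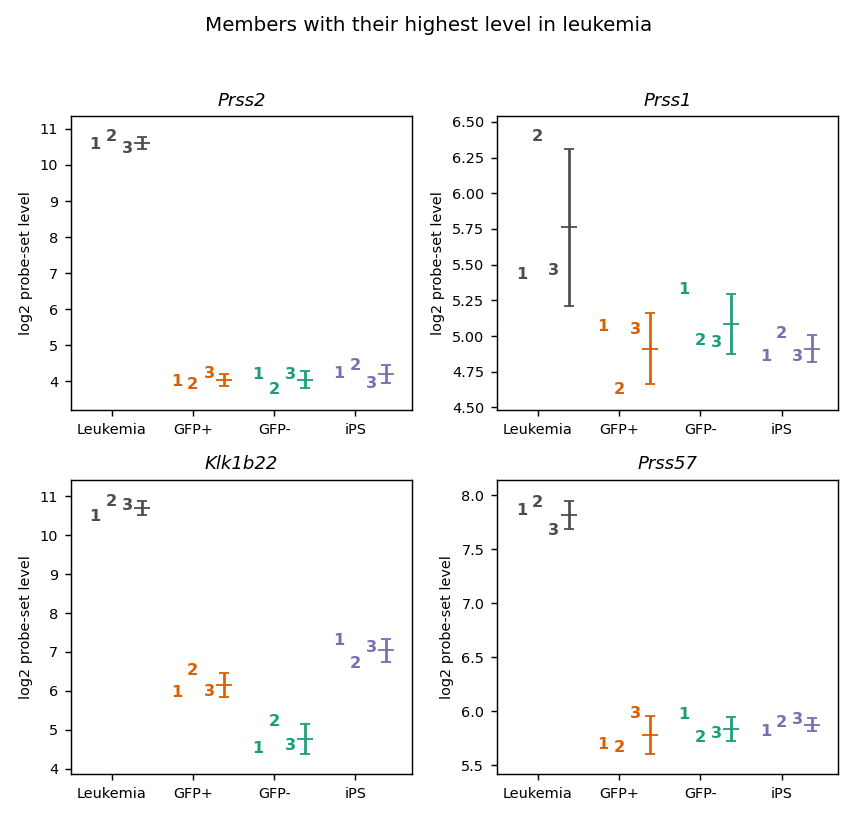
Log2 probe-set level (vertical axis, scaled per gene) of Prss2, Prss1, Klk1b22 and Prss57 on each array, drawn as its replicate number, with the group mean and SD as a bar (3 arrays per group). Prss2, Klk1b22 and Prss57 separate leukemia from all other arrays, while for Prss1 replicate 2 alone stands well above the rest.

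The promoters of Klk1b22 and Klk1b5 are shown because they are much alike although the genes peaked on different arrays. They lie at chr7:44112423-44112722 (Klk1b22) and chr7:44216224-44216523 (Klk1b5), plus strand of GRCm38.p6, from RefSeq. Capitals in Klk1b5 mark bases that differ from Klk1b22 or are unpaired with it in a global alignment.
Klk1b22: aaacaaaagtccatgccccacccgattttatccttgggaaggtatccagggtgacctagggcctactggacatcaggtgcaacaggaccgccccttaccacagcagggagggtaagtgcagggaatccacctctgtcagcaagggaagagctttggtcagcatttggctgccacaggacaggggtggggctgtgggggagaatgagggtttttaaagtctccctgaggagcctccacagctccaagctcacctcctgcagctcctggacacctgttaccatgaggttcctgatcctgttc
Klk1b5: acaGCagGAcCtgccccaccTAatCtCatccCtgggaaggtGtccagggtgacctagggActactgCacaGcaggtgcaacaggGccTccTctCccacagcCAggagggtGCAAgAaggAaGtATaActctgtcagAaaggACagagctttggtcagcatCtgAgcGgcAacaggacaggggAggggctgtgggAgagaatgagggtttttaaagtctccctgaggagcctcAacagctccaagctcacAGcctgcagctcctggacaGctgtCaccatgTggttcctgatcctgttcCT
The windows are 83.5% identical, and that of Klk1b9 is 84.4% identical to Klk1b22. Copies this close can share probe signal, so values of single Klk1b genes are uncertain.

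Prss57, a serine protease of neutrophil granules, was the other member clearly higher in leukemia. Its levels were 7.86, 7.93 and 7.67 in leukemia and 5.67 to 5.98 on the 9 other arrays, with no overlap. It fell by 2.04 ± 0.12 in GFP-positive colonies (adjusted p = 8.11e-07), fell by 1.98 ± 0.12 in GFP-negative colonies (adjusted p = 9.83e-07) and fell by 1.94 ± 0.12 in iPS cells (adjusted p = 1.09e-06). Granulocyte genes moved with it: 9, 10 and 10 of 10 fell in the 3 comparisons, with list averages of 8.77 to 8.82 on leukemia arrays and 5.11 to 5.91 elsewhere. Among them the granule proteases Elane and Prtn3 differed by -2.43 and -1.19 in GFP-positive colonies, and the part of such cells in the Prss57 result was not tested. Prss29, a tryptase-like gene, fell slightly in GFP-positive colonies (-0.54 ± 0.16, adjusted p = 0.0332) and was not called elsewhere.

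Of the 8 kallikreins that rose in GFP-positive colonies, 7 lie in 1 stretch of the chromosome 7 cluster and the other is Klk1. In gene order the stretch runs Klk14, Klk13, Klk12, Klk11, Klk10, Klk9, Klk8, Klk7 and Klk6, before Klk5, Klk4, Klk15, the Klk1b genes and Klk1. Of its 9 genes, Klk12 (2.22 ± 0.76, adjusted p = 0.0621) and Klk9 (1.39 ± 0.52, adjusted p = 0.0842) missed the threshold.

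Klk6, which cuts myelin and matrix proteins, measured 5.83, 5.78 and 5.69 in leukemia, 12.47, 9.18 and 9.92 in GFP-positive colonies, 10.24, 8.26 and 5.64 in the GFP-negative group and 5.60, 5.85 and 5.66 in iPS cells. The GFP-positive arrays and GFP-negative replicates 1 and 2 lay above all leukemia and iPS arrays, and GFP-negative replicate 3 lay among them. Klk6 rose by 4.76 ± 1.03 in GFP-positive colonies (adjusted p = 0.00755), was 2.28 ± 1.03 higher in GFP-negative colonies (adjusted p = 0.155) and -0.06 ± 1.03 apart in iPS cells (adjusted p = 0.978). Leaving out GFP-positive replicate 1 gave 3.79, and leaving out replicate 2 gave 5.43.

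Klk7, the chymotrypsin-like enzyme of the horny layer, read 6.50, 6.50 and 6.21 in leukemia, 11.82, 8.51 and 11.12 in GFP-positive colonies, 10.67, 7.37 and 6.54 in the GFP-negative group and 6.10, 6.41 and 6.40 in iPS cells. Its partner Klk14, a trypsin-like enzyme of the same layer, read 4.80, 4.84 and 4.85, then 9.48, 7.47 and 9.85, then 8.30, 5.16 and 5.0, and 4.98, 4.59 and 4.85 in the same order. For both, GFP-negative replicate 1 lay among the GFP-positive arrays while replicates 2 and 3 were nearer to leukemia. Klk7 rose by 4.08 ± 1.01 (adjusted p = 0.0146) and Klk14 by 4.11 ± 0.81 (adjusted p = 0.00457) in GFP-positive colonies. The Klk7 call was lost without GFP-positive replicate 1 or leukemia replicate 3, with an adjusted p of at most 0.0602. Leaving out GFP-positive replicate 1 gave 3.42 for Klk7, and leaving out replicate 2 gave 5.07 for Klk7 and 4.84 for Klk14.

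Klk13 and Klk11, trypsin-like kallikreins of squamous and glandular epithelia, had the largest mean rises of the stretch. Klk13 lay at 5.20 to 5.82 in leukemia, 10.74, 9.0 and 11.36 in GFP-positive colonies, 10.44, 6.30 and 6.23 in the GFP-negative group and 5.69 to 6.27 in iPS cells. Klk11 lay at 4.57, 4.83 and 4.61, then 9.58, 8.46 and 10.81, then 10.34, 7.58 and 5.50, and 6.68, 6.45 and 6.40. Every later array of Klk11, iPS cells included, was above every leukemia array, which was not so for Klk13. Klk13 rose by 4.79 ± 0.98 (adjusted p = 0.00554) and Klk11 by 4.95 ± 0.97 (adjusted p = 0.00428) in GFP-positive colonies. Without GFP-positive replicate 2 these differences were 5.47 and 5.53.

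Klk11 was the only kallikrein called higher in GFP-negative colonies, by 3.13 ± 0.97 (adjusted p = 0.0430). The call was lost without any leukemia array or without GFP-negative replicate 1 or 2, with a difference of 1.87 without replicate 1 and adjusted p up to 0.112. Without GFP-negative replicate 3 the difference was 4.29.

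Klk8, a protease of skin and hippocampus, read 6.75, 6.91 and 6.89 in leukemia, 11.58, 9.76 and 10.37 in GFP-positive colonies, 11.35, 9.53 and 7.12 in the GFP-negative group and 8.22, 8.16 and 8.35 in iPS cells. Klk10, a kallikrein of epithelia, read 7.02, 6.70 and 6.88, then 10.64, 8.48 and 11.79, then 10.84, 9.24 and 6.63, and 7.53, 7.59 and 7.72. Both were above leukemia on all GFP-positive and iPS arrays, and GFP-negative replicate 3 was the colony array nearest to leukemia. Klk8 rose by 3.72 ± 0.83 (adjusted p = 0.00877) and Klk10 by 3.44 ± 0.97 (adjusted p = 0.0286) in GFP-positive colonies. The Klk10 call was lost without any one of 5 of the 6 arrays compared, all but GFP-positive replicate 2, with adjusted p up to 0.0893. Leaving out replicate 2 of that group gave 4.35, and leaving out replicate 3 gave 2.70.

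Klk12 read 9.19, 6.80 and 9.75 on the GFP-positive arrays and 8.57 on GFP-negative replicate 1, against 6.17 to 6.63 in leukemia and 5.78 to 5.96 in iPS cells. Klk9 read 8.28, 6.20 and 7.18 in GFP-positive colonies and 7.69 on GFP-negative replicate 1, against 5.74 to 5.89 in leukemia. In both, GFP-positive replicate 2 was only slightly above leukemia. Directly next to this stretch, Klk5 (4.92 to 6.56 over all arrays) and Klk4, an enamel protease (6.48 to 7.23), were called in no comparison.

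**Figure D3:**
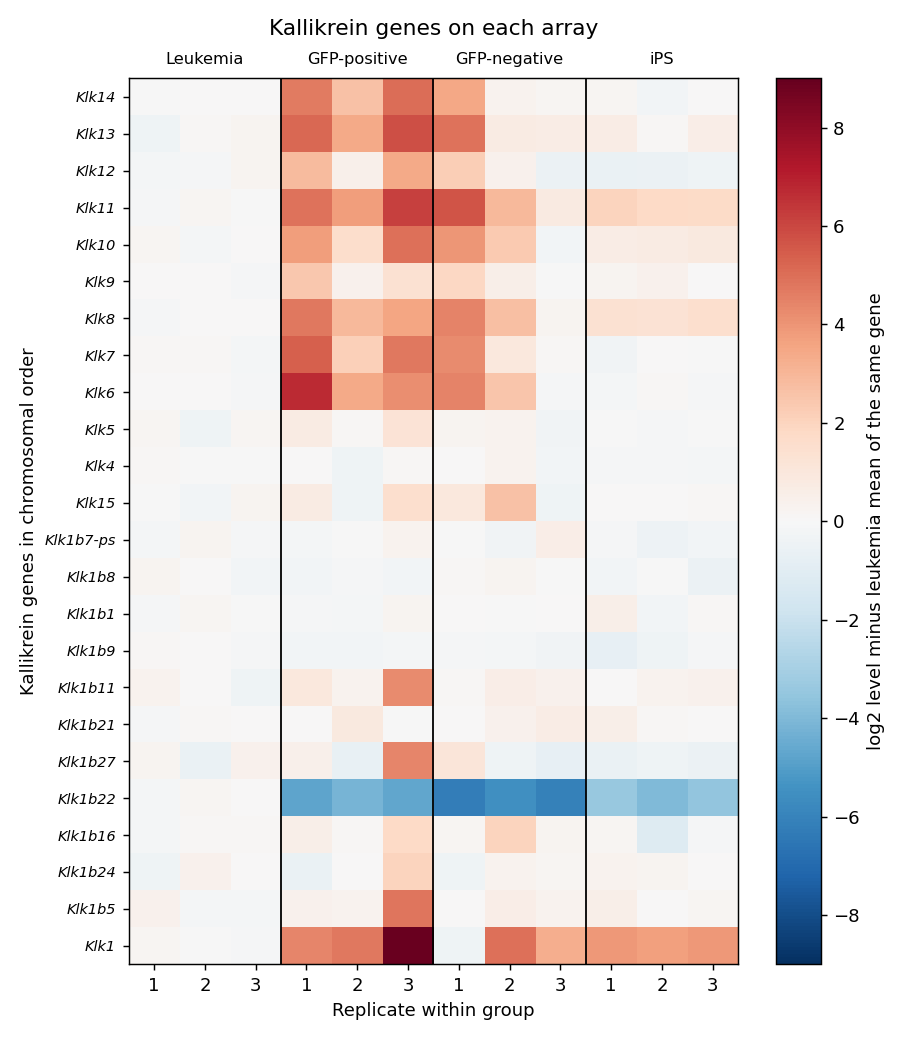
The 24 Klk genes in chromosomal order (rows) on each array (columns, 3 replicates per group), coloured by the log2 level minus the leukemia mean of the same gene. Klk14 to Klk6 are red on the GFP-positive arrays and GFP-negative replicate 1, Klk1b22 is blue on every array outside leukemia, and Klk1 with several Klk1b genes is darkest red on GFP-positive replicate 3.

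Stratified epithelium genes moved largely on the same arrays as Klk6 to Klk14. Of the 18 measured, 12 rose in GFP-positive colonies, among them Krt6a (8.07 ± 1.54, adjusted p = 0.00365), Krt14 (7.07 ± 1.32) and Ivl, which encodes involucrin (4.71 ± 1.12). On GFP-negative replicates 1, 2 and 3 Krt6a read 11.91, 5.22 and 4.09, the same order as for Klk7, Klk13 and Klk14. On replicate 2, however, Klk8, Klk10, Klk6 and Klk11 were still well above leukemia, at 9.53, 9.24, 8.26 and 7.58. The simple epithelium gene Krt8 had the same order of arrays, at 12.54, 11.55 and 7.96. Only 1 of the 18 rose and 1 fell in GFP-negative colonies, and 2 rose in iPS cells. Their part in the kallikrein differences was not tested.

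In iPS cells no kallikrein of the stretch was called against leukemia in the 4-group fit. All 3 iPS arrays of Klk11, Klk8 and Klk10 nevertheless lay above leukemia, by 1.84, 1.40 and 0.75 on average, with adjusted p of 0.214, 0.275 and 0.657. In a fit of only the 6 leukemia and iPS arrays, which leaves out the spread of the colonies, these differences had adjusted p of 1.24e-06, 1.77e-06 and 0.00029. Klk12 lay below leukemia by 0.50 (adjusted p = 0.00933 in that fit). With these 6 arrays 17 members were called in place of 9 (23%, against 47.4% of all genes in the same fit), and all 9 were among the 17.

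The promoters of Klk11 and Klk6 are shown because both genes were raised on the GFP-positive arrays and on GFP-negative replicates 1 and 2. Klk11, unlike Klk6, was also above leukemia on GFP-negative replicate 3 and on every iPS array. Each has 2 RefSeq entries, of which 1 is shown. The windows shown lie at chr7:43774367-43774666 (Klk11) and chr7:43824294-43824593 (Klk6), plus strand of GRCm38.p6, from RefSeq. Capitals mark the E-box CAGGTG, searched on both strands and found in 20.2% of all RefSeq promoters of this length.
Klk11: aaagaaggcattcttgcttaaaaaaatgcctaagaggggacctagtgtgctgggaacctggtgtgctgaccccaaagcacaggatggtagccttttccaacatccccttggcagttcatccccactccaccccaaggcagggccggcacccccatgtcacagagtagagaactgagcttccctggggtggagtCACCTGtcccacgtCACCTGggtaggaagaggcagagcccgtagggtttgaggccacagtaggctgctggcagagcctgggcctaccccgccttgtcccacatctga
Klk6: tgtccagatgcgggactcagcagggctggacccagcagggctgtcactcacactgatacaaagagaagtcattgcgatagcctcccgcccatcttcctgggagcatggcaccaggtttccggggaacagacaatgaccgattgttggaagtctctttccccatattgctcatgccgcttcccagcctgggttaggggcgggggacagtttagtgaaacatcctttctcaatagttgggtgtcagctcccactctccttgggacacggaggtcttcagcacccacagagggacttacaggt
The Klk11 window shown holds 2 matches and the Klk6 window none, and the other entry of each gene holds none. Of the 23 Klk genes with a promoter entry 15 held the E-box in at least 1 entry, 14 held TGGGAA (25.6% of all promoters), 7 held TGTGGT (16.8%), 1 held TATAAA and 0 held TGANTCA (7.81%). Many Klk1b windows are alike (Klk1b11 and Klk1b16 by 89.7%) and others less so (Klk1b21 and Klk1b8 by 56.5%), so these counts are not over independent sequences.

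Klk1 itself behaved unlike the epithelial stretch. It read 4.29, 4.10 and 4.03 in leukemia, 8.55, 8.85 and 13.06 in GFP-positive colonies, 3.72, 9.12 and 7.40 in the GFP-negative group and 8.02, 7.85 and 8.05 in iPS cells. GFP-negative replicate 1, on which Klk6 to Klk14 were high, was the lowest of all 12 arrays for Klk1, and every other colony and iPS array was above leukemia. Klk1 rose by 6.02 ± 1.34 in GFP-positive colonies (adjusted p = 0.00858), by 4.56 without GFP-positive replicate 3, with an adjusted p of at most 0.0325 whichever array was left out.

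The Klk1 difference was 2.61 ± 1.34 in GFP-negative colonies (adjusted p = 0.208) and 3.84 ± 1.34 in iPS cells (adjusted p = 0.0619). The iPS arrays of Klk1 differed among themselves by an SD of 0.107 and the leukemia arrays by 0.134, and the fit of these 6 arrays alone gave 3.84 with an adjusted p of 1.38e-08.

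On GFP-positive replicate 3 several Klk1 copies stood far above all other arrays. Klk1b5 read 11.10 there and 6.07 to 6.82 elsewhere. Klk1b11 read 9.79 against 5.17 to 6.50, and Klk1b27 8.73 against 3.66 to 5.46. Klk1b24 followed with 7.18 against 4.64 to 5.57. These genes were called in no comparison, since 1 array of 3 was high.

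Klk1b16 was high on GFP-positive replicate 3 (7.56) and GFP-negative replicate 2 (7.72) and between 4.59 and 6.29 elsewhere. Klk15 was highest on GFP-negative replicate 2, at 7.52, against 4.50 to 6.39 on the other arrays. Both of these arrays also had the highest Klk1 levels, 13.06 and 9.12. Prss32, a tryptase-like gene, read 9.99 on GFP-positive replicate 3, 7.44 on GFP-negative replicate 1 and 5.80 to 6.85 elsewhere. Krt6a was highest on GFP-positive replicate 3 as well, at 12.92, but was 11.91 on GFP-negative replicate 1, where Klk1b5, Klk1b11 and Klk1 were not raised.

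**Figure D4:**
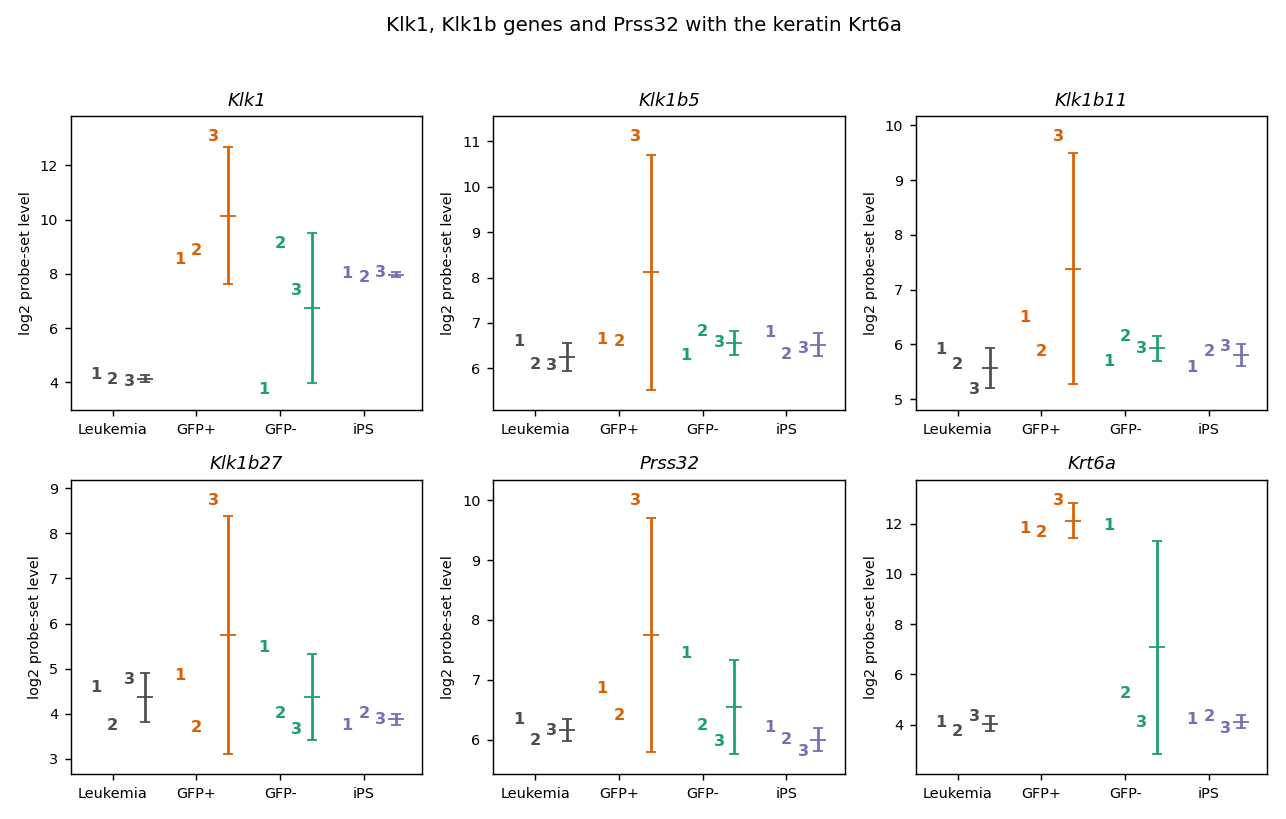
Log2 probe-set level (vertical axis, scaled per gene) of Klk1, Klk1b5, Klk1b11, Klk1b27 and Prss32 and of the keratin gene Krt6a on each array, drawn as its replicate number, with group mean and SD (3 arrays per group). Replicate 3 of the GFP-positive colonies is highest in all 6 panels, and replicate 1 of the GFP-negative colonies is high for Krt6a but lowest for Klk1.

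Among the Prss genes the steadiest rise was that of Prss8, which encodes prostasin, a membrane-anchored protease of epithelial barriers. It read 5.62, 5.51 and 6.25 in leukemia, 7.85, 7.27 and 7.55 in GFP-positive colonies, 7.63, 8.22 and 7.88 in the GFP-negative group and 7.30, 7.21 and 7.27 in iPS cells. All 9 later arrays lay above all leukemia arrays. Prss8 rose by 1.76 ± 0.22 (adjusted p = 0.000249), 2.12 ± 0.22 (adjusted p = 6.73e-05) and 1.46 ± 0.22 (adjusted p = 0.000713) in the 3 groups, called whichever array was left out.

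Some known partners of prostasin rose in the same comparisons. St14, which encodes matriptase, the protease that works with prostasin, rose by 4.98 ± 0.43, 4.56 and 3.99 in GFP-positive and GFP-negative colonies and iPS cells (adjusted p = 1.69e-05 in the first). Spint1, which encodes a Kunitz inhibitor of matriptase, rose by 4.31 ± 0.37, 3.83 and 3.42 (adjusted p = 1.71e-05). The Kunitz inhibitor gene Spint2 moved less, with means of 7.28 in leukemia and 7.98, 7.75 and 7.47 in the 3 later groups. All 10 simple epithelium genes, including Cdh1 and Epcam, rose in both colony groups and 6 of 10 in iPS cells.

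Prss23, a secreted protease of wide tissue range, read 6.13, 6.0 and 6.17 in leukemia, 8.64, 8.13 and 8.65 in GFP-positive colonies, 9.48, 7.56 and 5.41 in the GFP-negative group and 7.32, 7.24 and 7.25 in iPS cells. GFP-negative colonies spanned the lowest and the highest of the 12 values. Prss23 rose by 2.37 ± 0.74 in GFP-positive colonies (adjusted p = 0.0433), a call lost without any one of the 6 arrays (adjusted p from 0.0649 to 0.114). Its second probe set read 5.98 to 6.08 in leukemia and 8.53, 7.78 and 7.88 in GFP-positive colonies. On it GFP-negative replicate 3, the lowest array of the first, read 6.33, above all leukemia arrays.

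Prss22 and Prss27, proteases of airway and squamous epithelium, were above leukemia on all GFP-positive arrays but were not called. Prss22 read 7.84, 8.27 and 6.92 there and 8.82 on GFP-negative replicate 1, against 6.37 to 6.54 in leukemia (1.22 ± 0.53, adjusted p = 0.132). Prss27 read 6.81, 7.09 and 7.64 there and 7.98 on GFP-negative replicate 1, against 5.87 to 6.35 in leukemia (1.0 ± 0.43, adjusted p = 0.128). Both were near leukemia on GFP-negative replicates 2 and 3 and in iPS cells.

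In iPS cells Prss35 and Prss36 rose slightly. Prss35, a protease-like protein of the ovary, read 7.11, 6.67 and 6.44 in iPS cells against 5.60, 5.31 and 6.03 in leukemia (1.09 ± 0.33, adjusted p = 0.0321). Prss36, which encodes polyserase with several protease domains, read 6.95, 6.95 and 6.97 against 6.50, 6.22 and 6.21 (0.65 ± 0.18, adjusted p = 0.0218). The groups did not overlap, but the calls were lost without 4 and 5 of the 6 arrays in turn, and adjusted p then reached 0.124 and 0.0797. Neither was called in the colonies.

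Among the inhibitors, Spink1 marked the iPS cells. It read 4.59, 5.20 and 5.22 in leukemia, 6.04, 6.36 and 5.13 in GFP-positive colonies, 5.64, 6.70 and 7.54 in the GFP-negative group and 10.79, 10.73 and 10.75 in iPS cells. The iPS arrays lay above all 9 others by more than 3 on the log2 scale, and only GFP-positive replicate 3 reached into the leukemia range among the colonies. Spink1 rose by 5.75 ± 0.44 against leukemia in iPS cells (adjusted p = 6.14e-06) and by 1.62 ± 0.44 in GFP-negative colonies (adjusted p = 0.0228), and differed by 0.84 ± 0.44 in GFP-positive colonies (adjusted p = 0.213).

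The call in GFP-negative colonies was lost without any leukemia array or without GFP-negative replicate 2 or 3, and its size fell to 1.17 without replicate 3. Prss2, whose product Spink1 inhibits, read 3.94 to 4.44 on the same iPS arrays, as low as in the colonies.

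Spink5, the inhibitor of the skin kallikreins, followed Klk7 and Klk14. It read 5.66, 5.48 and 5.54 in leukemia, 7.91, 7.09 and 8.05 in GFP-positive colonies, 8.28, 5.97 and 5.64 in the GFP-negative group and 5.58, 5.66 and 5.56 in iPS cells. GFP-negative replicate 1 was the highest array, and replicate 3 of that group lay within the leukemia range. Spink5 rose by 2.12 ± 0.55 in GFP-positive colonies (adjusted p = 0.0194), a call lost without any one of the 6 arrays but GFP-positive replicate 2, with adjusted p up to 0.0644.

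Spink10 read 4.87, 4.28 and 4.57 in iPS cells and 3.53 to 3.95 in leukemia, a rise of 0.81 ± 0.20 (adjusted p = 0.0113) that was lost without leukemia replicate 2 or iPS replicate 1. Spink14 stayed between 3.75 and 4.64 on all arrays. It was 0.54 ± 0.14 lower in iPS cells than in GFP-positive colonies (adjusted p = 0.0329). The roles of both are less well known than those of Spink1 and Spink5.

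**Figure D5:**
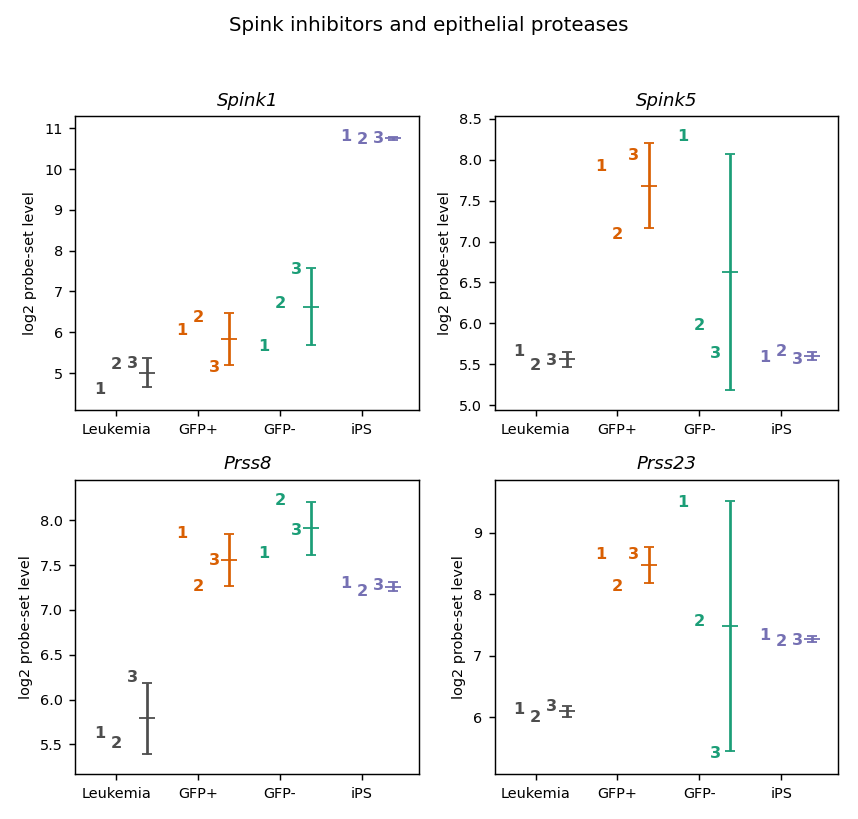
Log2 probe-set level (vertical axis, scaled per gene) of the inhibitor genes Spink1 and Spink5 and the protease genes Prss8 and Prss23 on each array, drawn as its replicate number, with group mean and SD (3 arrays per group). Spink1 is high on iPS arrays alone, Prss8 is higher on all arrays outside leukemia, and Spink5 and Prss23 span a wide range among GFP-negative colonies.

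Between iPS cells and GFP-positive colonies, 2 members were higher and 7 lower in iPS cells (12.2% of members, against 10.4% of all genes, 6.15% as higher and 4.23% as lower). The higher ones were Spink1 (4.91 ± 0.44, adjusted p = 0.000441) and Klk1b22. The lower ones were Klk6 (-4.82 ± 1.03, adjusted p = 0.0196), Klk13 (-4.32), Klk7 (-4.18), Klk14 (-4.13), Klk12 (-2.72, adjusted p = 0.0474), Spink5 (-2.09) and Spink14. All 7 lower members had no overlap between the 2 groups, and neither had members that were not called, such as Klk8, Klk10 and Prss28. The share of all genes without overlap was not counted. Without GFP-positive replicate 1, or without any 1 of the iPS arrays, Spink1 was the only member still called; without GFP-positive replicate 3, 3 members were called, and without GFP-positive replicate 2, 13. Over all genes 4.06%, from 2.69% to 2.81%, 5.36% and 15.4% were called in these fits. With all arrays but only the genes above the median, 39.1% of 23 members were called, against 21.8% of those genes. The difference of Klk6 was -3.85 and that of Klk7 -3.52 without GFP-positive replicate 1. Without replicate 2 Klk6, Klk7, Klk13, Klk14 and Klk12 stood at -5.49, -5.17, -5.0, -4.86 and -3.61.

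Of the 18 stratified epithelium genes 8 were lower in iPS cells than in GFP-positive colonies and 0 were higher. Against GFP-negative colonies, 2 members were higher in iPS cells and 0 lower (2.7% of members, against 4.23% of all genes, 2.93% as higher and 1.3% as lower). They were Spink1 (4.13 ± 0.44, adjusted p = 0.00117) and Klk1b22, both called whichever array was left out, and 5 members were called without GFP-negative replicate 3 (6.76%, against 7.91% of all genes).

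Between the colony groups no member was called (0% of all genes were called), with the lowest adjusted p at 0.181, for Klk1b22. At an unadjusted p under 0.05 there were 7 of 74 members, all of them Klk genes (9.46%, against 6.36% of all genes). The median difference of the Klk genes was -1.31 in GFP-negative relative to GFP-positive colonies, against 0.03 over all genes.

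Without GFP-negative replicate 1, whose epithelial genes were high, 7 members were called (9.46%, against 4.57% of all genes), all lower in GFP-negative colonies. They were Klk13 (-4.10 ± 0.54, adjusted p = 0.00592), Klk14 (-3.85), Klk7 (-3.53), Klk11 (-3.08), Prss23 (-1.99), Spink5 (-1.88) and Klk1b22 (-1.25 ± 0.25, adjusted p = 0.0253). A fit with array weights called 8 members (10.8%, against 5.9% of all genes) and leaving out GFP-positive replicate 3 as well called 6 (8.11%, against 4.72%). Since the array was singled out after its values were known, these are values of alternative settings only.

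The other 42 members, 7 Klk, 27 Prss and 8 Spink genes, spanned 0.28 to 1.65 on the log2 scale between their lowest and highest array, with a median span of 0.646. None of them was called in any comparison. Their values lay between 2.63 and 7.23, and 39 of the 42 had a mean below that of the median gene. Of all 74 members 23 had a mean above the median gene. Detection calls were not used here, so a member in this range cannot be called present or absent.

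Related genes outside the symbol rule were taken from lists chosen by function. Of 20 measured membrane-anchored serine proteases 3 rose in GFP-positive colonies, 2 in the GFP-negative group and 2 in iPS cells, and 0 fell. Beside St14 these were Tmprss12, called in all 3, and the airway protease Tmprss11d in GFP-positive colonies (1.37 ± 0.24, adjusted p = 0.00251).

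Of 16 measured epithelial protease inhibitors 5 rose and 1 fell in GFP-positive colonies, 1 rose and 1 fell in GFP-negative colonies, and 3 rose and 1 fell in iPS cells. Serpinb5, which encodes maspin, read 9.26, 8.53 and 10.92 in GFP-positive colonies, 9.63, 5.37 and 3.94 in the GFP-negative group and 4.34 to 4.59 in leukemia, with its colony arrays in the same order within each group as those of Klk13. It rose by 5.11 ± 1.16 in GFP-positive colonies (adjusted p = 0.00934), and the WAP-domain gene Wfdc5 by 3.03 ± 0.64. Slpi, the secreted inhibitor of neutrophil elastase, was the 1 that fell, with differences of -0.56, -0.83 and -0.56 in the 3 groups.

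Of 3 measured protease-activated receptors, which trypsin-like enzymes switch on by cutting, F2r rose in all 3 groups (1.63 ± 0.35, 1.55 and 2.23) and F2rl3 fell in all 3 (-1.01 ± 0.17, -0.99 and -1.02). The remaining 1 was not called.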

How the data were processed

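Per the submitters' processing notes, the authors deposited log2 values from RMA, which corrects background, sets the arrays to 1 distribution by quantiles and summarises probes. The software version is not given in the sources used here. The table held 41345 probe sets, of which 23521 had 1 gene symbol in the platform annotation, 1814 several and 16010 none, and array medians of 5.76 to 5.82. Quantile normalization would remove a shift of most genes. Probe sets with 1 symbol were used, the brightest per gene, which gave 22180 genes. Groups came from titles and characteristics.

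All 12 arrays entered 1 limma fit (limma 3.58.1, R 4.3.3) with a mean for each group, moderated by empirical Bayes, and p-values were Benjamini-Hochberg adjusted over all genes and called under 0.05. The fit was tested on simulated data. Differences are log2 ± standard error, and n = 3 arrays per group. The number of arrays limits the precision. Members with a call or a range of at least 2 were described singly, 30 at most by range; Prss29, which was called, and Klk1b24 fell outside this limit and were added. The members, lists and tests were chosen with earlier results of these data known. Alternatives were cyclic loess, array weights, only the 6 arrays compared, a replicate block, the mean of probe sets, a filter at the median gene, an intensity trend with robust moderation, each array left out, and the removal of both arrays that stand apart (GFP-positive 3, GFP-negative 1). Promoters and gene order came from RefSeq (GRCm38.p6): all 74 members matched the gene table, and 52 had a promoter entry used here. Alignments used Biopython 1.88. Protein sequences were not used here.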

Additional observations from a re-analysis of the deposited data

Results flagged for a closer look

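A probe set that carries the symbols of both Klk1b26 and Egfbp2, and so stood outside the comparisons, read 7.31 on GFP-positive replicate 3, against 4.78 to 5.61 on leukemia arrays and 4.78 to 6.07 on all arrays but that one. The same array was highest for Klk1, Klk1b5, Klk1b11 and Klk1b27. With copies this similar the transcript read by the probe set cannot be told apart.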

How the results depend on the processing

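No difference of a named member changed sign with a call. Of 2460 values of named members under alternatives 2258 kept their side of the threshold, 108 gained a call and 94 lost one. Of 41 calls 22 held whichever array was left out and under the other alternatives that fitted the gene. The removal of both arrays that stand apart was not part of that count. Genes below the median gene were not fitted under the filter. Some alternatives other than leaving out 1 array gave counts of members beyond 1.5 times the reported one. Array weights called 21 for GFP-negative colonies against leukemia (28.4%, against 39.1% of all genes) and 19 for iPS cells against leukemia (25.7%, against 47.5%). They called 21 for iPS cells against GFP-positive colonies (28.4%, against 31.5%), 12 against GFP-negative colonies (16.2%, against 19.8%) and 8 between colonies (10.8%, against 5.9%). Without both arrays that stand apart 11 were called for GFP-negative colonies against leukemia (14.9%, against 32.9%) and 6 between colonies (8.11%, against 4.72%). For iPS cells that setting called 16 against GFP-positive (21.6%, against 20.4%) and 4 against GFP-negative colonies (5.41%, against 10%). Only the 6 arrays compared called 17 for iPS cells against leukemia (23%, against 47.4%). The cause was not tested. With 1 array left out the counts ranged from 10 to 17 (GFP-positive colonies against leukemia, lowest without GFP-positive replicate 1), 4 to 11 (GFP-negative against leukemia, highest without GFP-negative replicate 3), 5 to 8 (iPS against leukemia, lowest without leukemia replicate 2 or iPS replicate 1), 1 to 13 (iPS against GFP-positive), 2 to 5 (iPS against GFP-negative, highest without GFP-negative replicate 3) and 0 to 7 (between colonies). In shares of members these ranges were 13.5% to 23%, 5.41% to 14.9%, 6.76% to 10.8%, 1.35% to 17.6%, 2.7% to 6.76% and 0% to 9.46%. Over all genes they were 15.3% to 21.5%, 14.7% to 27.2%, 17.6% to 18.1%, 2.69% to 15.4%, 1.13% to 7.91% and 0% to 4.57%. Between the colony groups, deviations from group means on arrays of the same replicate number correlated at 0.168, 0.322 and -0.377 for replicates 1, 2 and 3. In the other comparisons these correlations were -0.057 to 0.055. The mixed values of the colonies do not settle whether they were paired. A replicate block lost 5 calls of named members. It gave 16, 5, 8, 7, 2 and 0 calls in the 6 comparisons in the order of the report. These were 21.6%, 6.76%, 10.8%, 9.46%, 2.7% and 0% of members, against 20.7%, 19.8%, 23%, 8.62%, 3.33% and 0% of all genes. Signal over background was not measured.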

Other observations

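Proteases and receptors next to these families gave further values, to be read beside the shares of all genes called against leukemia given above. Of 14 plasminogen activator and coagulation genes, 2 fell in each of the 3 groups against leukemia: F2, which encodes prothrombin, with differences of -1.78 ± 0.22, -1.92 and -1.89, and F10 with -0.63, -0.69 and -0.71 (GFP-positive, GFP-negative and iPS, in this order). F3, which encodes tissue factor, rose in GFP-negative colonies by 2.47 ± 0.66 (adjusted p = 0.0227). Of 5 kinin system genes, which act downstream of Klk1, Ace, the peptidase that degrades kinins, fell in all 3 groups (-1.84 ± 0.45, -2.40 and -2.74), and Cpn1, a kinin-trimming carboxypeptidase subunit, rose by 1.62 ± 0.28 in GFP-positive and 1.17 in GFP-negative colonies.

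Of 13 mast cell and basophil genes, Hdc, the histamine-forming enzyme, fell in all 3 groups (-2.01 ± 0.16, -2.07 and -2.19). Mcpt8, a basophil serine protease gene, instead read 8.50, 8.56 and 8.66 in iPS cells and 6.54, 6.71 and 6.86 in leukemia (1.87 ± 0.44, adjusted p = 0.0103). Its colonies ranged from 5.43 to 7.44, with GFP-positive replicate 3 the highest.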
